A study of Mus musculus with 17 samples.

Results

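The genes described here encode the organic ion and drug transporters of the kidney: the SLC22 family of organic anion, organic cation and carnitine transporters, the SLCO family of organic anion transporting polypeptides, the SLC47 efflux exchangers, and the ABCB, ABCC and ABCG pumps driven by ATP. Members were the protein-coding genes of these families with at least 10 counts in at least 8 libraries of one genotype taken alone. Of 67 such family genes, 42 met this rule, made up of 20 of 25 Slc22a, 7 of 14 Slco, 1 of 2 Slc47a, 7 of 10 Abcb, 6 of 10 Abcc and 1 of 6 Abcg genes. The table holds 55487 genes, of which 10273 protein-coding genes met the same count rule. The rule was met in both genotypes by 32 members. It was met in db/db alone by Abcb1a, Abcb1b, Slc22a29, Slc22a3 and Slco4a1, and in db/m alone by Slc22a15, Slc22a19, Slc22a26, Slc22a7 and Slco1a1. Genes that entered through 1 genotype alone were chosen partly by their difference, so counts over members describe the set and support nothing by themselves. Just inside the rule lay Slc22a15, with 10 counts or more in 7 db/db and 8 db/m libraries. Just outside lay Abcc6, which reached 10 counts in 6 db/db and 5 db/m libraries, and Abcg1, which did so in 5 db/db and 3 db/m libraries.

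Kidney RNA of 17 male mice, all 16 weeks old, was sequenced with 1 library for each animal. The 9 db/db mice carried 2 copies of the leptin receptor allele Leprdb, and become obese and diabetic. The 8 db/m mice carried 1 copy of Leprdb, and are lean. Both are of the same congenic strain on the BKS background, and both carry at least 1 Leprdb allele. The groups also differ at a second locus, not reported here, and effects of the 2 loci cannot be told apart. Genotypes were read from the sample titles, and both the library names and the numbers of animals stated for the 2 groups match them. The genotype field of the sample records names the opposite genotype for every animal, and if that field were right every direction given here would turn round. Libraries were made with a QuantSeq 3′ kit, which reads transcript ends only, so long and short transcripts count alike. Levels are given as CPM, counts scaled to a common library total, and the CPM of different genes are not compared. Gapdh, a gene that all cells use, had only 25 counts over the db/db libraries and 18 over the db/m libraries, so a low count in this table need not mean a low level of expression. In whole tissue, fewer cells of a type and less RNA per cell cannot be told apart.

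In the kidney these transporters clear drugs, toxins and metabolites from blood into urine, mainly in the proximal tubule. Organic anion and cation transporters in the basolateral membrane take solutes up from blood. Proton exchangers and ATP-driven pumps in the brush border then move them into the tubular fluid, where other SLC22 members carry urate, nicotinate and carnitine back into the cell. In mice several SLC22 and SLCO genes are known to differ between the sexes under the control of androgens and growth hormone.

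Members that met the test of the difference between genotypes were mostly lower in db/db kidneys, and most of these were organic anion transporters. Of the 42 members, 15 were called (adjusted p under 0.05 in edgeR's quasi-likelihood F-test, Benjamini-Hochberg adjusted over 12131 genes), 4 higher and 11 lower in db/db. The called members made up 9.52% of members on the higher side and 26.2% on the lower side, against a background of 3.91% of all tested genes higher and 3.49% lower. In either direction the shares were 35.7% of members and 7.39% of all tested genes. The median log2 fold change, given throughout as db/db minus db/m, was -0.12 over the members and 0.0033 over all tested genes. Among the 32 members that met the count rule in both genotypes, 2 were higher and 7 lower. Every db/db library lay outside the range of the db/m libraries for 1 higher member, Abcb1b, and for 6 lower members, Slc22a26, Slc22a7, Slco1a1, Slc22a19, Slc22a17 and Slc22a28. Such separation occurred on the higher side in 0.734% and on the lower side in 1.05% of all tested genes, or 1.78% in all. Abcb1b, Slc22a26, Slc22a7, Slco1a1 and Slc22a19 met the count rule only in the genotype where they are high, which favours separation. Among the 32 members that met it in both genotypes, 0 were separate on the higher side and 2 on the lower side, Slc22a17 and Slc22a28. Summed over the 42 members, the level ran from 3863 to 5333 CPM in db/db (median 4541) and from 4517 to 6482 CPM in db/m (median 5240), so the groups overlapped.

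**Figure D1:**
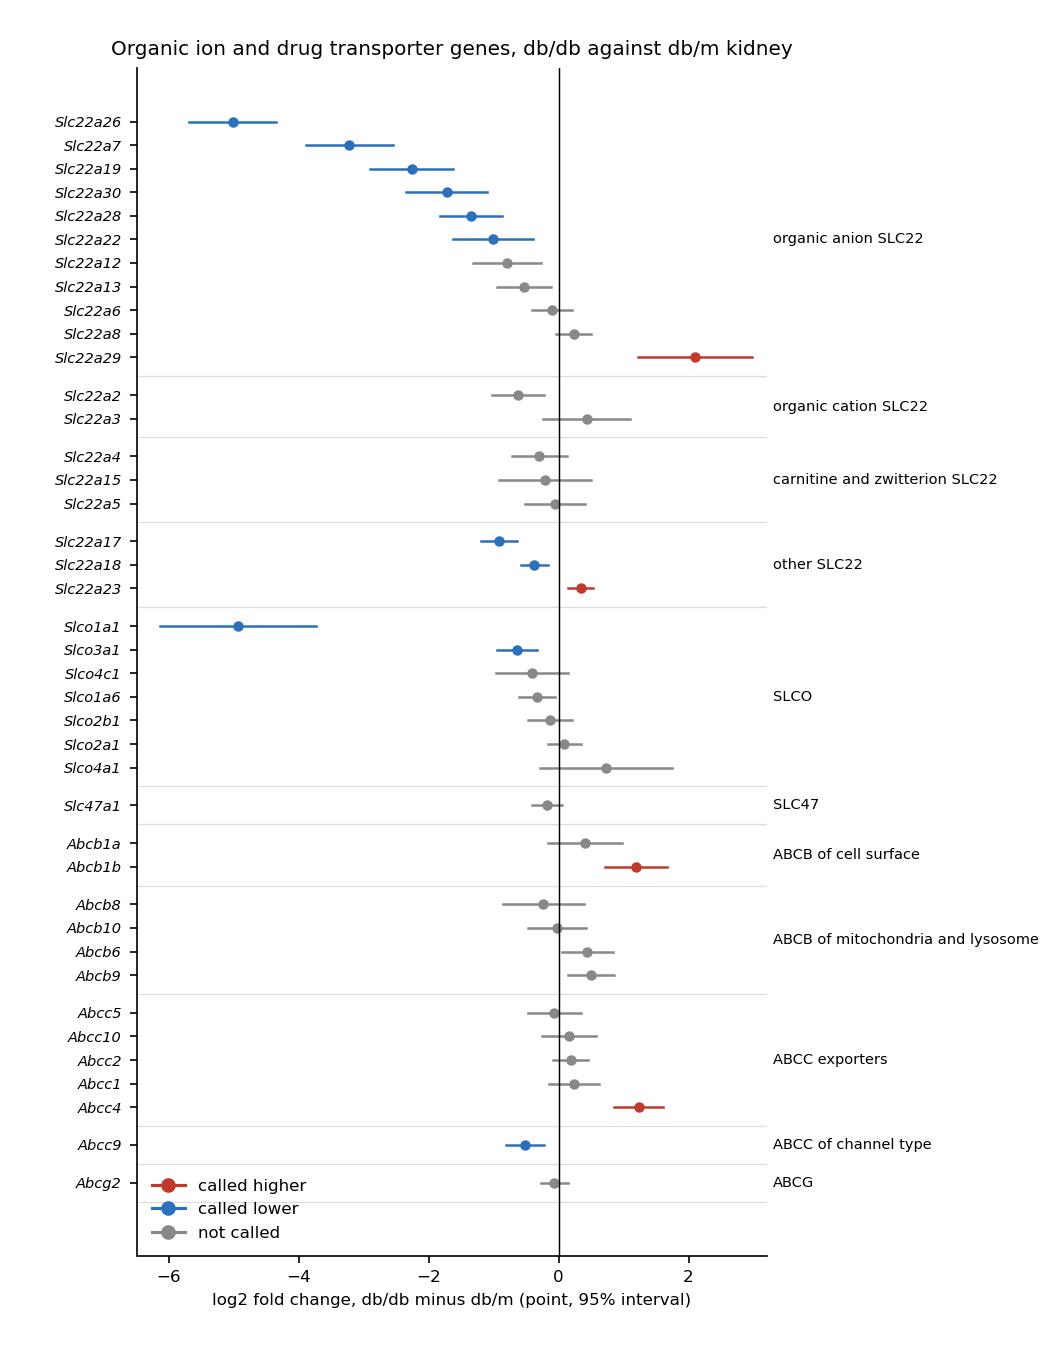
Log2 fold change (db/db minus db/m) of 40 of the 42 members with 95% intervals, one gene per row, grouped by transport role; colours mark members called higher, called lower or not called. The organic anion SLC22 group holds 6 lower members and 1 higher one, while no organic cation, carnitine, SLC47 or ABCG member was called by edgeR. DESeq2 and limma-voom each called 1 member of these uncalled groups lower, Slc22a2. Over all tested genes 3.49% were lower and 3.91% higher. Slc22a26, Slc22a7 and Slc22a19 met the count rule only in db/m and Slc22a29 only in db/db, in each case where the gene is high.

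Markers of kidney segments were found in every library, some at only a few CPM, and some of them differed between the genotypes. Their part in the results for the transporters was not tested. Of 9 genes that mark S3, the final segment of the proximal tubule, where several organic anion transporters are found, 5 were lower and 2 higher in db/db. Their summed level ran from 2573 to 4151 CPM in db/db and from 5726 to 7755 CPM in db/m, without overlap. Acy3 was the largest part of that sum in db/m, with a lowest, median and highest level of 2656, 3715 and 4145 CPM. In db/db Acy3 had 588, 961 and 1321 CPM. Of 14 genes that mark S1 and S2, 3 were higher and 0 lower, with sums from 8647 to 17179.7 CPM in db/db and from 7882 to 11249 CPM in db/m. Pck1, 1 of the 14, was uneven, at 6822 CPM in db/db replicate 1 against a db/db median of 1034 CPM. For the S1 and S2 list, 1 lower gene had an unadjusted p under 0.05, and DESeq2 called 0 lower. Of 10 tested genes with known higher expression in male than female mouse kidney, 10 were lower, with sums from 2047 to 6144 CPM in db/db and from 18926 to 30650.1 CPM in db/m. The androgen-regulated kidney protein gene Kap led that sum, with a lowest, median and highest level of 1716, 3989 and 5530.2 CPM in db/db, against 17285, 25053 and 28878 CPM in db/m. An 11th gene of that list, Hsd3b4, had 0 counts in every library. Cyp7b1 and Slc7a13 are on both the S3 and the male-biased list. Markers of the thick ascending limb were 1 higher and 1 lower of 5. Distal markers were called higher for 4 of 6 genes of the distal convoluted and connecting tubule, 4 of 6 of principal cells and 3 of 5 of intercalated cells, with 0 lower by edgeR, by DESeq2 or at an unadjusted p under 0.05. Of other cell types, 2 of 5 podocyte markers were higher, 1 of 6 leukocyte markers was lower, and 0 of 8 endothelial, 0 of 3 hepatocyte and 0 of 4 adipocyte markers were called by edgeR. At an unadjusted p under 0.05 these last lists had 1, 1 and 0 genes, and DESeq2 called 0, 1 and 0.

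On chromosome 19, 7 members are neighbours in the order Slc22a19, Slc22a26, Slc22a28, Slc22a29, Slc22a30, Slc22a8 and Slc22a6. Slc22a27, which lies between Slc22a26 and Slc22a28, had 2 counts over db/db and 6 over db/m and fell under the rule. The promoters of the 7 members are shown because adjacent genes of the run moved in opposite directions, and that of Slco1a1, on another chromosome, because its fall was the one nearest in size to that of Slc22a26. Each sequence runs 5′ to 3′ along the gene's own strand, from RefSeq on build GRCm38.p6, and covers 300 bases around the start site. Their places are chr19:7711261-7711560, chr19:7802618-7802917, chr19:8131933-8132232, chr19:8218851-8219150 and chr19:8405056-8405355 on the minus strand, chr19:8592932-8593231 and chr19:8617746-8618045 on the plus strand, and chr6:141946913-141947212 for Slco1a1 on the minus strand. Capitals mark matches, on either strand, to 5 motifs searched: an HNF4 site CAAAGTCCA, the STAT site TTCNNNGAA, the steroid receptor motif AGAACA, which is only a part of a full receptor site, an NRF2 site TGACTCAGC and the TATA box TATAAA.
Slc22a19: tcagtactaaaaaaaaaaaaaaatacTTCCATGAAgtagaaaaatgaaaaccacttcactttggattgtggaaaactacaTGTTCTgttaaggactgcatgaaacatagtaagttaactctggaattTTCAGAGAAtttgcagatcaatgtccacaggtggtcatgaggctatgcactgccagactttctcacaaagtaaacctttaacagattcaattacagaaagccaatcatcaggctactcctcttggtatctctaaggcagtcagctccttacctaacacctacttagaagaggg
Slc22a26: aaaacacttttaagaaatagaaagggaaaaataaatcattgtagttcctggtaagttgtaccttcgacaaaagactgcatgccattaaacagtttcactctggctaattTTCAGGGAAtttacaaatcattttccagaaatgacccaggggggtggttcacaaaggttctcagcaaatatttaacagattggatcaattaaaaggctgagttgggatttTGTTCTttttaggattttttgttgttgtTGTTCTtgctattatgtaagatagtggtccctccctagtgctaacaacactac
Slc22a28: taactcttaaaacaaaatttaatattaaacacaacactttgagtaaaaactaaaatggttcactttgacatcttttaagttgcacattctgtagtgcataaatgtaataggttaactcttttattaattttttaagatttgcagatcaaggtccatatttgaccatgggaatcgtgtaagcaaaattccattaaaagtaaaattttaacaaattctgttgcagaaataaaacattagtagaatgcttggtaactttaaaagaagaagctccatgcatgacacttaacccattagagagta
Slc22a29: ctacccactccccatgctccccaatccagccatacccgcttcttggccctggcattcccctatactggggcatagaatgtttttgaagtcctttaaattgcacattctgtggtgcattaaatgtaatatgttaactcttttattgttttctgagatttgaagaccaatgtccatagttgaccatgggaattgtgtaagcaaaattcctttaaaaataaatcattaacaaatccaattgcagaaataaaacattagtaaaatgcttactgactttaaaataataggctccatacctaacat
Slc22a30: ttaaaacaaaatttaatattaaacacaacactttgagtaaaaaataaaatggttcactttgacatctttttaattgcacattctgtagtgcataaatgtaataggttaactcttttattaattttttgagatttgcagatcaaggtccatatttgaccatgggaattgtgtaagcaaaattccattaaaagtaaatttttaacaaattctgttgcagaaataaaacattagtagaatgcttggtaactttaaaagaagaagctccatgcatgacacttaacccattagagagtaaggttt
Slc22a8: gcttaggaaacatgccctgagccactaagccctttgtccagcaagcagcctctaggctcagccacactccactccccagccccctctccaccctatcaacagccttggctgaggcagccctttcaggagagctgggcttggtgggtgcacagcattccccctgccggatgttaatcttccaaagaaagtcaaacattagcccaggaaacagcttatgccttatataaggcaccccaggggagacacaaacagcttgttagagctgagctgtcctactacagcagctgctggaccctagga
Slc22a6: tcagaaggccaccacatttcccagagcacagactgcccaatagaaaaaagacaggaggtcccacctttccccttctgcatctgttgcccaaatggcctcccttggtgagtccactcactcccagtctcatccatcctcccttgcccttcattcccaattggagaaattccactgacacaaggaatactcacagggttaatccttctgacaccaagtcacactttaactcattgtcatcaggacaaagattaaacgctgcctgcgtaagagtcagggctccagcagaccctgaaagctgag
Slco1a1: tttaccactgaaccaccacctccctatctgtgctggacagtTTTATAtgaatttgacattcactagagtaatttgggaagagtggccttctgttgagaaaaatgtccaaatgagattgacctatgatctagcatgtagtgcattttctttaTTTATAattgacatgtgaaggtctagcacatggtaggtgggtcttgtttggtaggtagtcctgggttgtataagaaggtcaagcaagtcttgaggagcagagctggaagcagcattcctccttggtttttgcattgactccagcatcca

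The promoters of Slc22a28 and Slc22a30, which both fell, were nearly the same sequence, with 94.1% identity in a global alignment (288 of 306 columns). Slc22a29, which lies between them and rose, was 67.98% identical to Slc22a28 and 68.1% to Slc22a30. Slc22a19 was 63.5% identical to Slc22a28 and 64.1% to Slc22a30, and Slc22a26 and the other pairs lay between 45.6% and 54.9%. STAT sites occurred in the windows of Slc22a19, 2 times, and Slc22a26, 1 time, against 8.30% of all 32851 promoter windows of the same length. The steroid receptor motif occurred 1 time in Slc22a19 and 2 times in Slc22a26, against 18.97% of all windows. The letters of the TATA box occurred 2 times in Slco1a1, against 13.6% of all windows and 16.3% of member windows. Both of these matches lay on the opposite strand, from positions -209 and -99 relative to the start site. Over all 43 windows of members, STAT sites occurred in 16.3% and the steroid receptor motif in 23.3%. The STAT site and the steroid receptor motif both occurred in windows of Abcc4, which rose, and neither occurred in Slc22a28 or Slc22a30, which fell. The HNF4 and NRF2 sites occurred in no member's window, against 0.475% and 0.454% of all windows. These are matches of letters in short windows, not measured binding sites. Promoter windows were found for 35 members and not for 7, among them Slc22a7, Slco3a1 and Slc47a1.

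Slc22a26, which belongs to a rodent branch of the organic anion transporters, had 0 CPM at its lowest, a median of 0.274 and a highest value of 0.889 CPM in db/db, against 9.25, 11.9 and 12.8 CPM in db/m. The transcript was all but missing from every db/db library, with 13 counts in all, and was present at an even level in every db/m library, with 431 counts. In the 2 libraries at 0, db/db replicates 7 and 9, a limit of 3 counts allows levels of up to 0.924 and 0.378 CPM, counting error only. It fell by 5.02 on the log2 scale (SE 0.32; edgeR adjusted p = 2.62e-09), a fold that rests on those 13 counts. Slc22a19 (Oat5), which exchanges dicarboxylates and steroid sulfates, had a lowest, median and highest level of 0.824, 1.92 and 4.22 CPM in db/db, against 4.38, 10.3 and 19.8 CPM in db/m. It fell by 2.26 (SE 0.31; edgeR adjusted p = 3.97e-05), with the groups just separate. Slc22a28 had 14.7, 31.9 and 54.2 CPM in db/db, against 56.3, 84.9 and 129 CPM in db/m. The highest db/db library lay just under the lowest db/m library, and the gene fell by 1.35 (SE 0.23; edgeR adjusted p = 0.000479). Slc22a30 had 8.24, 15.01 and 58.0 CPM in db/db, against 47.1, 70.2 and 132 CPM in db/m. Its db/db libraries lay below all db/m libraries except db/db replicate 1, and it fell by 1.72 (SE 0.30; edgeR adjusted p = 0.000628).

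Slc22a29 went the other way. Its lowest, median and highest levels were 2.77, 4.31 and 6.18 CPM in db/db, against 0, 0.695 and 3.39 CPM in db/m. In 6 of 9 db/db libraries it lay above every db/m library, and in db/m replicate 3 held no count (3 counts there would be 0.780 CPM) while db/m replicate 2 stood well above the other 7. It rose by 2.10 on the log2 scale (SE 0.42; edgeR adjusted p = 0.00263), a 4.28-fold difference resting on 179 counts in db/db and 39 in db/m. In the last 500 bases of their transcripts, Slc22a28 and Slc22a30 shared 6.43% and Slc22a29 and Slc22a27 shared 13.3% of the 50-base words of whichever gene had fewer. Reads from such stretches cannot be assigned between the copies, so part of each of these counts is uncertain. No shared word was found between any other pair of the run.

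**Figure D2:**
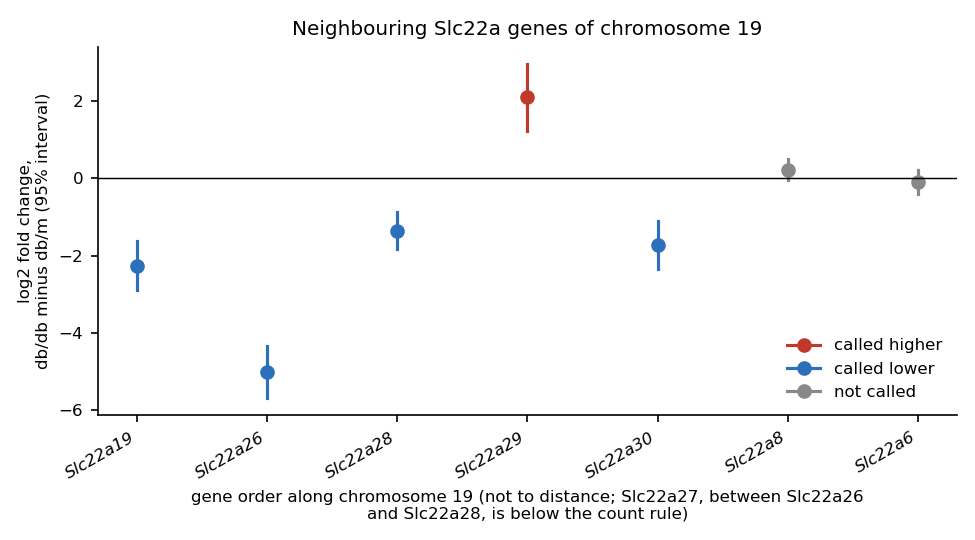
Log2 fold change (db/db minus db/m, with 95% interval) of the 7 neighbouring Slc22a members in their order along chromosome 19, not drawn to distance. The rise of Slc22a29 (2.10) stands between the falls of Slc22a28 (-1.35) and Slc22a30 (-1.72), and Slc22a8 and Slc22a6 at the end of the run lie near 0.

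The last pair in the run, which carry most para-aminohippurate and many antibiotics, diuretics and antivirals from blood into the proximal tubule cell, did not pass the test. Slc22a8 (OAT3) had 519.5, 715 and 946 CPM in db/db at its lowest, median and highest, against 485, 623 and 846 CPM in db/m. Its log2 fold change stood at 0.23 (SE 0.13, interval at the 95% level -0.036 to 0.50; edgeR adjusted p = 0.318). Slc22a6 (OAT1) had 607, 888 and 1225 CPM in db/db, against 738, 916 and 1178 CPM in db/m. The db/db libraries of Slc22a6 spread on both sides of the db/m range, at a log2 fold change of -0.10 (SE 0.15, interval -0.41 to 0.21; edgeR adjusted p = 0.754). The intervals leave room for a rise of Slc22a8 by 0.50 or a fall of Slc22a6 by 0.41 on the log2 scale.

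Outside the run, the largest fall among organic anion transporters of the SLC22 family was in Slc22a7 (OAT2, on chromosome 17), which carries cyclic nucleotides, prostaglandins and other anions. Slc22a7 had 0.667, 3.53 and 6.18 CPM in db/db, against 15.6, 32.7 and 52.0 CPM in db/m. The groups were far apart, with means of 3.54 ± 2.05 CPM in db/db (SD, n = 9) and 33.5 ± 12.8 CPM in db/m (SD, n = 8), and the gene fell by 3.22 (SE 0.32; edgeR adjusted p = 8.16e-07). Slc22a22 (OAT-PG, on chromosome 15), a prostaglandin transporter, had 6.80, 18.6 and 49.5 CPM in db/db, against 23.5, 38.7 and 78.2 CPM in db/m. It fell by 1.02 (SE 0.30; edgeR adjusted p = 0.0381), with 7 of 9 db/db libraries below all db/m libraries. Of the 15 called members it lost its call in the most alternative analyses, 14 of 26, over which the adjusted p ran from 0.00232 to 0.124. The call was lost without any one of db/db replicates 2, 3, 4, 5, 7 and 9 or of db/m replicates 1, 2, 3, 4 and 8, at log2 fold changes from -1.05 to -0.84.

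Slc22a12 and Slc22a13, organic anion members that carry urate, had negative values that missed the threshold. Slc22a12 (URAT1), which takes urate back from the tubular fluid, had 131, 178 and 324 CPM in db/db, against 105, 389 and 577 CPM in db/m. The db/m group was uneven, since replicates 5 and 7 lay at 105 and 193 CPM, the first below and the second within the db/db range, and the other 6 at 349.9 CPM or above. Its log2 fold change was -0.80 (SE 0.25; edgeR adjusted p = 0.0553), and over the 26 alternatives the adjusted p ran from 0.00635 to 0.132. The gene passed the threshold without db/db replicate 1 or 6 or db/m replicate 5 or 7, at -0.91 to -0.87, and in 3 other alternatives. Slc22a13 (OAT10), which exchanges urate and nicotinate, had a log2 fold change of -0.53 (SE 0.20; edgeR adjusted p = 0.117) and passed only without db/m replicate 5, at -0.62. The 3′ end of Slc22a12 overlaps Nrxn2 on the opposite strand, and the strand setting of the counting is not given in the sources used here. That of Slc22a13 overlaps Slc22a14 on the same strand, where no strand setting would separate the reads.

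The organic cation transporters were not called by edgeR, though 1 of them had an unadjusted p under 0.05 and was called lower by DESeq2 and limma-voom. Slc22a2 (OCT2), the main basolateral entry of metformin and other cations in the kidney, had 226, 341 and 816 CPM in db/db, against 418, 629 and 811 CPM in db/m. All db/db libraries but replicates 6 and 8 lay below every db/m library, and db/db replicate 8 lay above them all. Slc22a2 was the one called by those tools; its log2 fold change was -0.63 (SE 0.19, interval -1.03 to -0.23; edgeR adjusted p = 0.0519), just short of the threshold, with adjusted p between 0.000154 and 0.143 over the 26 alternatives. Without db/db replicate 8 it was -0.83 and without db/m replicate 8 it was -0.70, both past the threshold. Slc22a3 (OCT3) was at 0.43 (SE 0.32), and its 3′ end overlaps Plg. The single SLC47 member Slc47a1 (MATE1), which exports cations into urine in exchange for protons, had 443, 555 and 626 CPM in db/db, against 481, 628 and 734 CPM in db/m. Its groups overlapped, at -0.18 (SE 0.11, interval -0.41 to 0.043; edgeR adjusted p = 0.358).

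None of the 3 carnitine and zwitterion carriers passed the test, and none had an unadjusted p under 0.05 in edgeR or a call by DESeq2. Slc22a5 (OCTN2), which recovers carnitine from urine, had 4.31, 11.3 and 19.3 CPM in db/db, against 7.14, 11.4 and 17.2 CPM in db/m. It was at -0.064 (SE 0.22, interval -0.53 to 0.40; edgeR adjusted p = 0.908). Its transcript end shared 74.1% of its 50-base words with that of Slc22a21, which had 30 counts over db/db and 47 over db/m, so reads of the pair are largely interchangeable. Slc22a4 (OCTN1), an ergothioneine transporter, had 9.91, 16.4 and 32.5 CPM in db/db, against 13.9, 20.7 and 36.2 CPM in db/m. It was at -0.30 (SE 0.20, interval -0.72 to 0.12), and Slc22a15, which carries zwitterions in humans, was at -0.21 (SE 0.34).

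All 3 remaining SLC22 members were called, with smaller differences than the called anion transporters. Slc22a17 (on chromosome 14), described as a receptor for lipocalin-2, had 12.2, 15.7 and 23.8 CPM in db/db, against 27.1, 31.6 and 42.6 CPM in db/m. The groups did not overlap, and it fell by 0.92 (SE 0.13; edgeR adjusted p = 8.26e-05). Slc22a18, an imprinted gene next to Cdkn1c on chromosome 7, had 204, 247 and 313 CPM in db/db, against 268, 327 and 381 CPM in db/m. It fell by 0.37 (SE 0.10; edgeR adjusted p = 0.0265), with 7 of 9 db/db libraries below all db/m libraries. Slc22a23, an orphan carrier, had 49.6, 54.8 and 59.3 CPM in db/db, against 34.8, 42.5 and 54.5 CPM in db/m, with 5 of 9 db/db libraries above all db/m libraries. It rose by 0.34 (SE 0.094; edgeR adjusted p = 0.0298). The calls of Slc22a18 and Slc22a23 ended in 8 and 9 of the 26 alternatives, with adjusted p from 0.00664 to 0.171 and from 0.00972 to 0.130. The call of Slc22a18 was lost without db/db replicate 3 or 9 or db/m replicate 1, 2, 4 or 6, at -0.36 to -0.34. That of Slc22a23 was lost without db/db replicate 3 or 5 or db/m replicate 3, 4, 7 or 8, at 0.30 to 0.34.

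**Figure D3:**
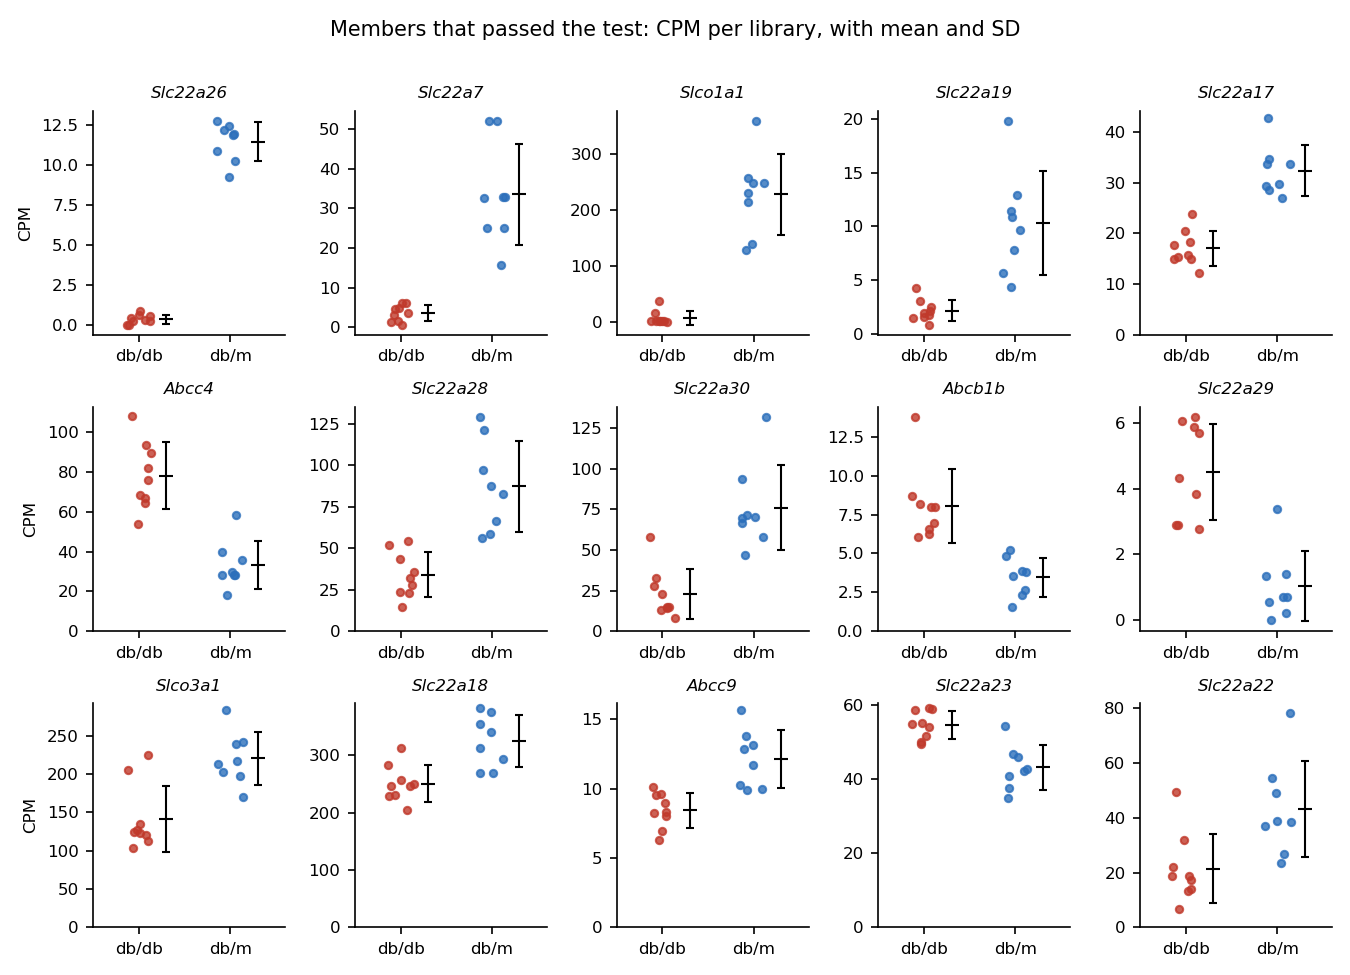
CPM in each library for the 15 called members, db/db left and db/m right in each panel, with mean and SD beside the points. Slc22a26, Slc22a7 and Slco1a1 lie near the floor of the db/db columns, whereas the groups of Slc22a18 and Slc22a23 overlap.

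Among the 7 SLCO members, 2 fell and 0 rose. On the higher side 0 had an unadjusted p under 0.05 in edgeR and DESeq2 called 0. Over all tested genes 3.49% were lower, and Slco1a1, 1 of the 2, met the count rule only in db/m, where it is high. Slco1a1 (Oatp1a1, on chromosome 6), a carrier of steroid conjugates and bile acids whose expression in mouse kidney depends on androgens, had 0.840, 2.27 and 36.9 CPM in db/db, against 129.6, 240.3 and 359.8 CPM in db/m. It fell by 4.93 on the log2 scale (SE 0.58; edgeR adjusted p = 6.37e-06), with 294 counts over db/db and 8626 over db/m. The db/db libraries were far from even: replicate 1 held 36.9 and replicate 6 held 17.1 CPM, while the other 7 held at most 2.40 CPM. Without db/db replicate 1 the log2 fold change was -5.96. Slco3a1 (on chromosome 7), which carries prostaglandins and thyroxine, had 103, 124 and 225 CPM in db/db, against 170.0, 215 and 283 CPM in db/m. Replicates 1 and 6 were again the 2 highest db/db libraries, at 225 and 205 CPM, while the other 7 lay at 134 CPM or below, under the whole db/m range. Slco3a1 fell by 0.64 (SE 0.15; edgeR adjusted p = 0.00998).

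The other SLCO members were not called. Slco1a6, next to Slco1a1 but for one gene, was at -0.34 (SE 0.13; edgeR adjusted p = 0.140) and passed only without db/db replicate 8, at -0.42. Slco4c1, a digoxin and uremic toxin carrier of the basolateral membrane, had 2.00, 4.92 and 9.09 CPM in db/db, against 5.98, 6.72 and 10.01 CPM in db/m. Its db/db libraries spread widely, while the db/m libraries lay close together except replicate 7, at a log2 fold change of -0.41 (SE 0.27, interval -0.97 to 0.14; edgeR adjusted p = 0.403). Slco4a1, a thyroid hormone carrier, was at 0.73 (SE 0.49, interval -0.28 to 1.75). Slco2b1 and the prostaglandin carrier Slco2a1 were at -0.13 (SE 0.16) and 0.089 (SE 0.13).

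Of the 8 ATP-driven pumps of the cell surface, 2 rose and 0 fell, with 0 at an unadjusted p under 0.05 on the lower side in edgeR and 0 called there by DESeq2. Over all tested genes 3.91% were higher, and Abcb1b, 1 of the 2, met the count rule only in db/db, where it is high. Abcc4 (MRP4, on chromosome 14), which exports cyclic nucleotides, urate and conjugated drugs into the urine, had 53.9, 76.2 and 108 CPM in db/db, against 17.9, 29.1 and 58.3 CPM in db/m. In 8 of 9 db/db libraries it lay above every db/m library, with means of 78.1 ± 16.97 CPM in db/db (SD, n = 9) and 33.3 ± 11.9 CPM in db/m (SD, n = 8). It rose by 1.23 (SE 0.18; edgeR adjusted p = 0.000120), or 2.35-fold. Abcb1b (on chromosome 5), 1 of the 2 P-glycoprotein genes of the mouse, had 6.03, 7.96 and 13.8 CPM in db/db, against 1.56, 3.66 and 5.22 CPM in db/m. The groups did not overlap, and it rose by 1.19 (SE 0.23; edgeR adjusted p = 0.00189), or 2.29-fold. Its transcript end shared 6.02% of 50-base words with the phospholipid pump gene Abcb4, which had 29 counts over db/db and 31 over db/m. The other P-glycoprotein gene, Abcb1a, had 4.31, 6.39 and 10.98 CPM in db/db, against 1.61, 5.44 and 8.00 CPM in db/m. The groups overlapped, at 0.40 (SE 0.27, interval -0.17 to 0.97; edgeR adjusted p = 0.432), and whether the 2 genes differ from each other in response was not tested.

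Abcc2 (MRP2), an apical exporter of glucuronide and glutathione conjugates, had 206, 252 and 399.8 CPM in db/db, against 191, 229 and 295 CPM in db/m. It was at 0.19 (SE 0.13, interval -0.088 to 0.46; edgeR adjusted p = 0.451). Abcg2 (BCRP), which exports urate and sulfate conjugates, had 200.3, 252 and 280.1 CPM in db/db, against 206, 258 and 333 CPM in db/m. Of the uncalled members it had the smallest SE, with a log2 fold change of -0.067 (SE 0.10, interval -0.28 to 0.14; edgeR adjusted p = 0.761). The exporters Abcc1 (0.24, SE 0.19), Abcc10 (0.16, SE 0.20) and Abcc5 (-0.064, SE 0.20) were not called, and the 3′ end of Abcc10 overlaps Dlk2. Of the members of mitochondria and lysosomes, 0 were called by edgeR or DESeq2, and 2 had an unadjusted p under 0.05. Of these the lysosomal peptide pump Abcb9 was at 0.50 (SE 0.17; edgeR adjusted p = 0.0805) and passed only without db/db replicate 1, at 0.55, while the porphyrin pump Abcb6 was at 0.44 (SE 0.19). The mitochondrial members Abcb8 (-0.24, SE 0.30) and Abcb10 (-0.032, SE 0.22) both had intervals that span 0. The 3′ ends of Abcb6, Abcb9 and Abcb10 also overlap other annotated genes.

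Abcc9 (SUR2, on chromosome 6) differs from the pumps, since it is the regulatory subunit of ATP-sensitive potassium channels in vascular smooth muscle and pericytes. It had 6.30, 8.32 and 10.1 CPM in db/db, against 9.89, 12.3 and 15.7 CPM in db/m, with 8 of 9 db/db libraries below all db/m libraries. It fell by 0.52 (SE 0.14; edgeR adjusted p = 0.0265), and its call ended in 7 of the 26 alternatives, with adjusted p from 0.0194 to 0.101. The call was lost without db/db replicate 3 or 6 or db/m replicate 2, 3 or 7, at -0.51 to -0.45. Of 7 markers of fibroblasts and mural cells, 0 were called in either direction by edgeR or DESeq2 (1 had an unadjusted p under 0.05), and their summed level ran from 168 to 360.4 CPM in db/db and from 128 to 402 CPM in db/m.

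**Figure D4:**
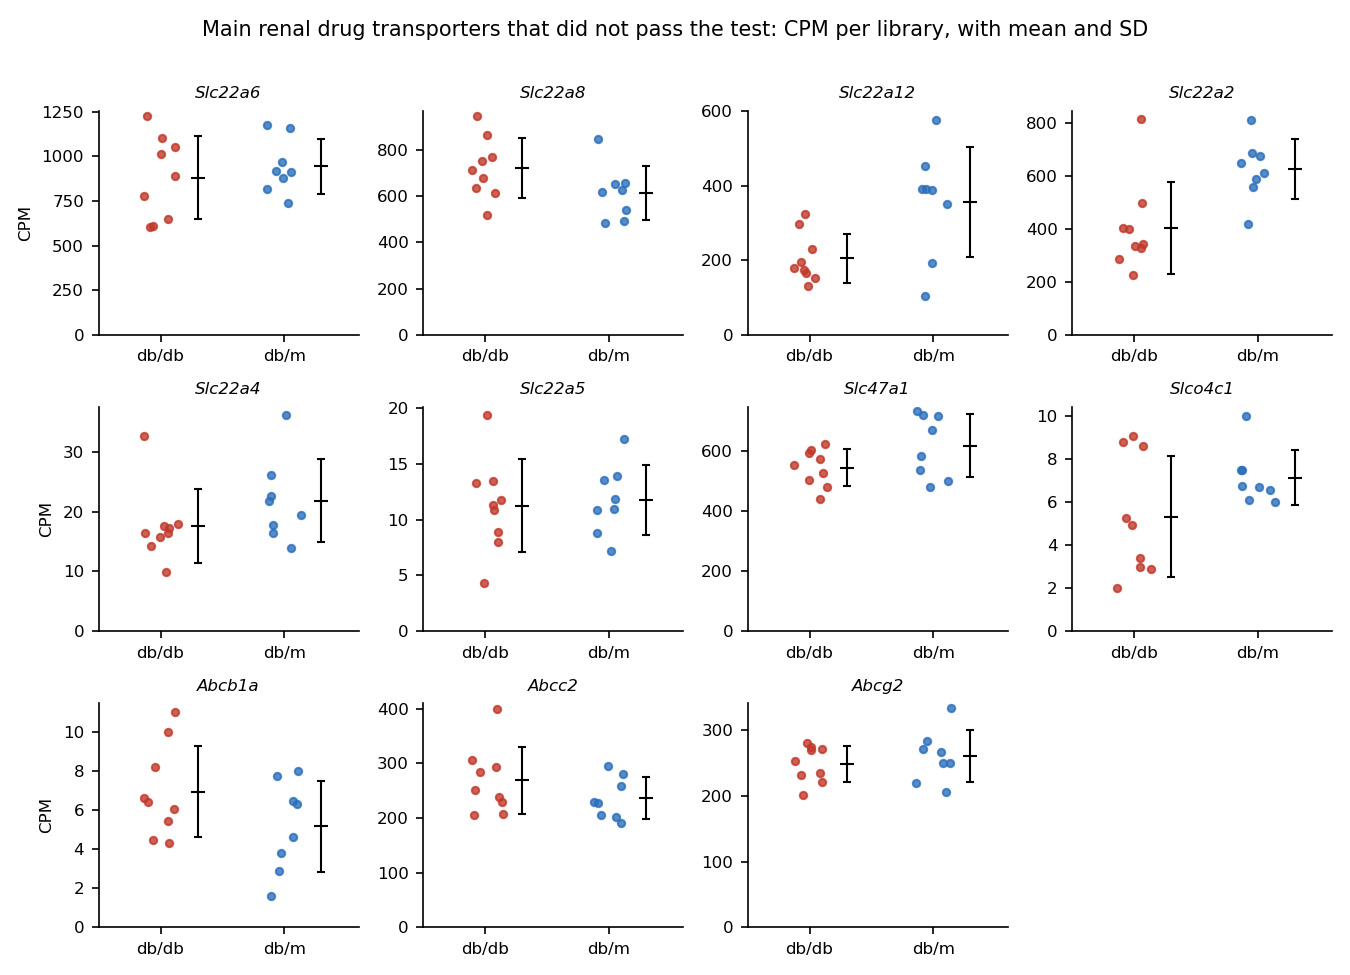
CPM in each library for 11 main renal drug transporters that did not pass the test, db/db left and db/m right in each panel, with mean and SD. The groups overlap in every panel; the db/db points of Slc22a2 lie mostly below the db/m points, apart from db/db replicate 8 at 816 CPM.

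Some lower members did not fall to the same depth in every db/db animal. Replicate 1 was the highest db/db library for 7 of the 11 lower members, and replicates 1 and 6 were the 2 highest for 4 of them (Slco1a1, Slc22a30, Slco3a1 and Slc22a22). This pair was picked after its levels were seen, and no other pair was counted. It came highest for 0 of the 4 higher members and for 2 of the 27 members not called. Slc22a7 and Slc22a17 differed from this order, since db/db replicate 1 was the lowest db/db library of both, at 0.667 and 12.2 CPM. For the 11 lower members, the coefficient of variation of CPM between libraries had a median of 46.7% in db/db and 31.5% in db/m, and it was larger in db/db for 8 of them. The 27 members not called also varied more in db/db, with medians of 29.4% in db/db and 22.8% in db/m and a larger value in db/db for 18 of 27, whereas it was larger in db/db for 0 of the 4 higher members. Counting error raises this coefficient in the group with fewer counts, so it does not measure the spread between animals alone. It was 83.6% for Slc22a26 in db/db, on 13 counts, and 104% for Slc22a29 in db/m, on 39 counts. Without the libraries that stood apart from their group on the first 2 principal components (db/db replicates 4 and 8 and db/m replicate 8), 3 members were higher and 11 lower, beside 422 genes higher and 441 lower in the whole table. Of the 15 called members 13 were still called; Slc22a23 and Slc22a22 lost their calls, at 0.32 and -0.83, and Slc22a2 was newly called lower, at -0.82.

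**Figure D5:**
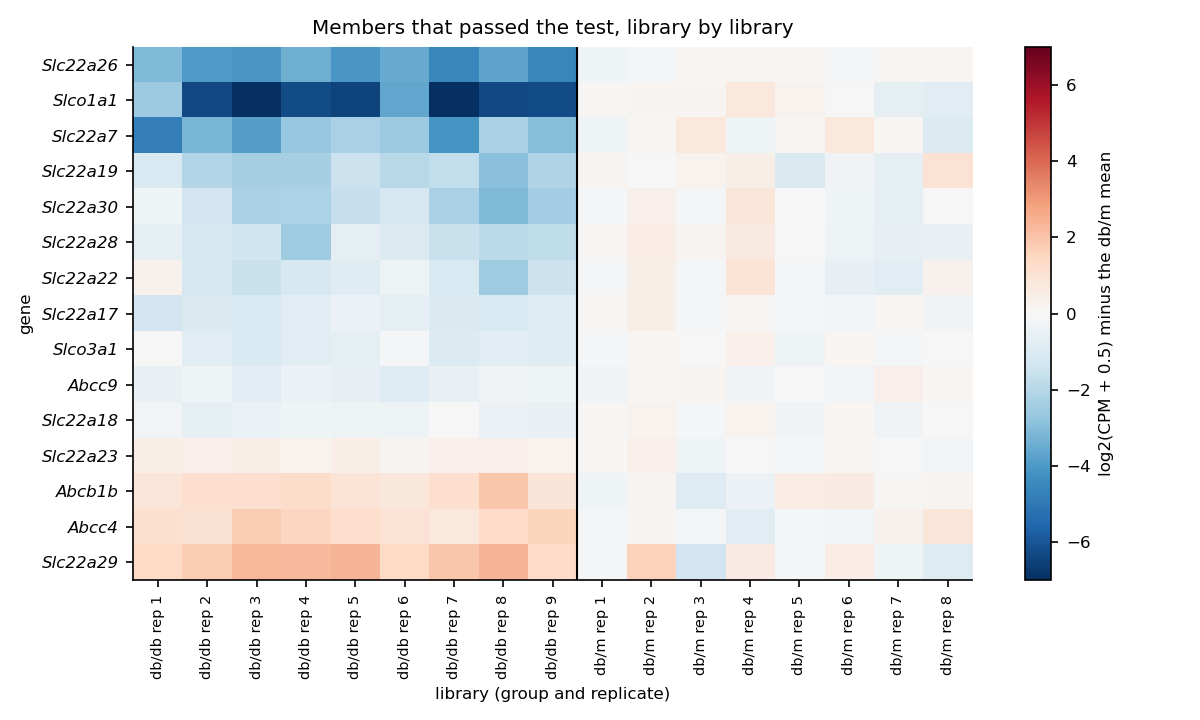
Level of the 15 called members in each library as log2(CPM + 0.5) minus the db/m mean of the gene, db/db libraries left of the line and db/m libraries right, with blue for lower and red for higher. Slco1a1 in db/db replicates 1 and 6 (-2.55 and -3.64) is paler than in the other 7 db/db libraries, and Slc22a7 in replicate 1 (-4.77) is darker.

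Other transporters of organic solutes, a list of 44 genes outside these families, were counted beside the members. Of 36 tested, 3 were higher (Slc13a2, Slc19a1 and Slc23a3) and 2 lower (Slc17a3 and Slc51a), with a median log2 fold change of 0.02. These are 8.33% and 5.56% of the list, against 3.91% and 3.49% of all tested genes. Slc17a3, an apical carrier of phosphate, urate and drugs, had 136, 199 and 286 CPM in db/db, against 346, 430.4 and 585 CPM in db/m. The groups did not overlap, and it fell by 1.12 (SE 0.14; edgeR adjusted p = 1.22e-05). Slc51a, a subunit of the basolateral steroid and bile acid exporter, fell by 1.08 (SE 0.24). The folate carrier Slc19a1 rose by 0.78 (SE 0.16), the orphan carrier Slc23a3 by 0.87 (SE 0.23) and the citrate carrier Slc13a2 by 0.48 (SE 0.14). Without db/db replicate 1, 4 genes of this list were lower.

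Of 38 tested genes among 44 listed as regulators and scaffolds of these transporters, 3 were higher (Prlr, Sgk1 and Nr1i2) and 3 lower (Ghr, Esr1 and Nr3c1), with a median of -0.03. In each direction this is 7.89% of the list, against 3.91% of all tested genes higher and 3.49% lower. The prolactin receptor gene Prlr had 39.8, 94.9 and 131 CPM in db/db, against 5.75, 10.8 and 23.01 CPM in db/m, without overlap, and rose by 2.88 (SE 0.25; edgeR adjusted p = 1.24e-07). The growth hormone receptor gene Ghr had 139, 160.2 and 232 CPM in db/db, against 204, 292 and 379 CPM in db/m, and fell by 0.76 (SE 0.13; edgeR adjusted p = 0.000560). The estrogen receptor gene Esr1 fell by 1.14 (SE 0.24) and the glucocorticoid receptor gene Nr3c1 by 0.51 (SE 0.14). Sgk1, a kinase that regulates many carriers, rose by 1.21 (SE 0.27), and Nr1i2, the pregnane X receptor, a drug sensor, rose by 1.41 (SE 0.34). The transcription factor Hnf4a (-0.18, SE 0.18), which drives proximal tubule transporter genes, and the scaffold Pdzk1 (-0.11, SE 0.11) were not called.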

How the data were processed

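Poly(A) RNA of 17 kidneys was made into 3′ libraries with a QuantSeq forward kit, per the labels' protocols, whose text speaks of cells in plates although the tissue given is kidney. The deposited table gives raw counts for each gene. STAR 2.7.3a and HTSeq are the tools named in the submitters' processing notes. The notes also name the human build GRCh38, while the identifiers are of mouse genes. Mouse build, strand setting and use of molecular identifiers: not given in the sources used here. Reads outside genes (19.3%) and ambiguous reads (0.533%) entered neither library sizes nor tests.

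Gene counts per library ran from 3256427 to 7627747 (median 4547593 in db/db and 4588031.5 in db/m). Libraries of a group were compared for copies by a chi-square test, whose lowest value per degree of freedom was 3.84, so each was used. Library numbers 1 to 8 are all db/m, so a batch that followed the number and the group cannot be told apart.

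Counts of all 17 libraries were fitted with edgeR 4.0.16 (R 4.3.3; TMM factors, quasi-likelihood F-test, no covariate). The function filterByExpr with its minimum count of 10 kept 12131 genes, among them all 42 members. P-values were adjusted over all tested genes by Benjamini-Hochberg and called at an adjusted p under 0.05. The SE was obtained from the log2 fold change and its F statistic, and intervals are at the 95% level. CPM were computed with TMM factors. DESeq2 1.42.0, limma 3.58.1 (voom), other scalings and filters, a replicate block and leaving out each library gave 25 alternatives. A further alternative was chosen after seeing the data: the set without the libraries over 3 median absolute deviations from their group on principal component 1 or 2. The code was tested on simulated counts.

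A few items, 2 of the 42 members among them, are not reported one by one here, though counts over the whole set include these members. All called members and the other main renal drug transporters are given with their values, and from each pathway list the 4 genes of smallest p. Other genes of these lists (Slc13a2, Nr1i2, Nr3c1, Hnf4a and Pdzk1), Kap, Acy3, Pck1 and the members not called outside that set were named after their values were seen. Members, gene lists and tests were chosen with earlier results of these data known. Promoter windows come from RefSeq (GRCm38.p6), and gene order and transcript ends from GENCODE.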

Additional observations from a re-analysis of the deposited data

Results flagged for a closer look

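In each group the highest or lowest animal was compared with its nearest neighbour by Dixon's criterion at the 95% level. Of 80 groups of values of 40 members, 10 held an animal that stood apart, in each case the highest of its group. A chance rate of about 1 in 20 holds only for independent, normally distributed values. CPM from few counts are skewed and the members share libraries, so the 10 cannot be set against that rate. In db/db replicate 1, Slco1a1 was at 36.9 CPM (next highest 17.1), Slc22a30 at 58.0 CPM (next 32.5) and Abcb8 at 27.1 CPM (next 13.4). In db/db replicate 8, Abcb1b was at 13.8 CPM (next 8.71), Slc22a2 at 816 CPM (next 498) and Slc22a4 at 32.5 CPM (next 17.998). In db/m replicate 8, Slco4a1 was at 44.4 CPM (next 21.1) and Slc22a3 at 7.05 CPM (next 3.79). Slc22a29 stood at 3.39 CPM in db/m replicate 2 (next 1.38), and Slco4c1 at 10.01 CPM in db/m replicate 7 (next 7.51). Both replicates numbered 8 are among the libraries that stood apart on the first 2 principal components, and db/db replicate 1 is not.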

How the results depend on the processing

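Of the 15 called members, 11 kept their direction and their call in all 26 alternatives, and Slc22a18, Abcc9, Slc22a23 and Slc22a22 lost theirs in some. Leaving out 1 library gave 3 to 5 members higher and 8 to 13 lower, 2 to 4 other organic solute transporters higher and 2 to 4 lower, 3 and 3 regulators, and 324 to 654 genes higher and 324 to 592 lower. The 4 lower transporters of the other list were seen without db/db replicate 1. DESeq2 called 637 genes higher and 608 lower, with 4 members higher and 13 lower. Replicate numbers are not stated to pair the animals. Deviations of libraries with the same number correlated at r from -0.454 to 0.212, and 1 of 8 libraries matched its own number best. A pairing that leaves no mark on expression would not show in these correlations, so they do not settle whether animals were paired. With the replicate number as a block, 3 members were higher and 8 lower, and 200 genes were higher and 235 lower. Values near 0 changed sign in some settings. Without the libraries that stood apart, Slc22a15 was at 0.016, Abcc5 at 0.20, Slc22a5 at 0.015 and Abcb10 at 0.069. Leaving out 1 library, Abcc5 ran from -0.13 to 0.070, Slc22a5 from -0.20 to 0.037 and Abcb10 from -0.11 to 0.073. The cause of these changes was not tested. At this depth, members with few counts, such as Slc22a26 in db/db and Slc22a29 in db/m, have imprecise folds.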

Other observations

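The family genes under the count rule were mostly too low to be tested. Abcc6 and Abcg1 were tested and not called, at log2 fold changes of 0.015 and 0.024 (edgeR adjusted p = 0.986 and 0.983). The next 3 genes were not tested. Abcc3 (MRP3), a basolateral exporter of conjugates, had 70 counts over db/db and 14 over db/m, with a lowest, median and highest level of 0, 1.52 and 2.90 CPM in db/db, against 0, 0.202 and 1.33 CPM in db/m. Slco1a4, a neighbour of Slco1a1, had 29 counts over db/db and 82 over db/m, with 0, 0.433 and 2.156 CPM in db/db, against 1.04, 1.65 and 4.84 CPM in db/m. Slc47a2, the second proton-driven cation exporter, had 13 counts over db/db and 13 over db/m. Of the 25 family genes under the rule, 8 had no count in any library.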
